A study of Mus musculus with 7 samples.

Results

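The mitochondrial protein import, chaperone and dynamics genes were taken as all probe sets annotated to a single gene symbol that begins with Timm or Tomm, together with those of 21 further named genes. The rule used names and no measured value. It found 86 probe sets of 42 genes among 22626 probe sets on the array, of which 20380 carried 1 symbol. Import had 51 probe sets of 25 genes, protein quality control 14 of 8 and dynamics 20 of 8. The remaining probe set belonged to Timmdc1, which matches by name only and is an assembly factor of respiratory complex I. No probe set carried Phb as its single symbol, and probe sets that list Tomm5 or Tomm6 beside another gene were not taken.

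The study profiled heart RNA on 7 Affymetrix 3' arrays. The 4 WT arrays came from wild-type C57/BL6 mice. The 3 KLF15-null arrays came from mice lacking Krüppel-like factor 15, a zinc-finger transcription factor that regulates metabolic genes in heart, muscle and liver. All mice were 3 to 4 months old, were labelled male and had fasted for 18 h, so no fed heart was compared and the fast cannot be separated from the genotype comparison. The labels do not say whether the deletion is confined to the heart. They do not say how many animals gave each array, so p-values measure only the spread between these arrays.

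Klf15 itself stood at a log2 signal of 8.87 ± 0.19 on the WT arrays (SD, n = 4). On the KLF15-null arrays it stood at 6.33 ± 0.17 (SD, n = 3). It fell by 2.54 on the log2 scale (SE 0.13, limma adjusted p = 1.26e-06, exact two-sided permutation p = 0.0286, the smallest that 35 assignments allow). Whether this probe set lies in the deleted stretch is not given. The label of sex was also checked. Xist, which is transcribed from the inactive X chromosome of female cells, had log2 values of 8.57 to 9.94 over the 7 arrays on its brightest probe set, and 7 probe sets of 4 Y-linked genes stayed at or below 5.15, which goes against the label male on all 7 arrays. The deposited values had array medians of 6.22 to 6.33, and their 98th percentile was 11.43 to 11.74 in WT against 11.86 to 12.02 in KLF15-null arrays. Differences are given as KLF15-null minus WT throughout. Their median over the brightest 10% of all probe sets was 0.30. Of the 86 member probe sets 36 lay in that brightest 10%, where their median was 0.34.

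Nearly all mitochondrial proteins are encoded in the nucleus and imported. Receptors of the outer membrane (TOM complex) bind them, the TOM channel passes them on, and the TIM complexes of the inner membrane, a chaperone motor and small chaperones of the intermembrane space sort them. Chaperones and proteases of the matrix then fold or degrade them. Fusion, fission and cristae-shaping proteins set the form of the mitochondrial network, which in cardiac muscle lies densely packed between the myofibrils.

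Promoter windows of 4 genes are printed. Among the import genes these are the receptors Tomm70a and Tomm20, which rose, and the channel gene Tomm40, which fell. Among the chaperones it is Hspe1, which shares a head-to-head start region with Hspd1 and whose call did not hold under every scaling between arrays. Each window is the 250 bases before the annotated start, 5′ to 3′ on the gene's strand, from RefSeq on GRCm38.p6. Capitals mark the letters GGGCGG, the GC box, and CACCC, on either strand. Factors of the Sp and Krüppel-like families bind such boxes, and no binding was measured here. Tomm70a lies at chr16:57121464-57121713 on the plus strand, Tomm20 at chr8:126945922-126946171 on the minus strand, Tomm40 at chr7:19715430-19715679 on the minus strand and Hspe1 at chr1:55087898-55088147 on the plus strand.
Tomm70a: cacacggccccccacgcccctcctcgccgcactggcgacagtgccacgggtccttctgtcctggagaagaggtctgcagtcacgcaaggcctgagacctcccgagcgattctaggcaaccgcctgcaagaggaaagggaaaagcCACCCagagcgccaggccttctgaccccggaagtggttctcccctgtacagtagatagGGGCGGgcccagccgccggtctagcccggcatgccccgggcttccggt
Tomm20: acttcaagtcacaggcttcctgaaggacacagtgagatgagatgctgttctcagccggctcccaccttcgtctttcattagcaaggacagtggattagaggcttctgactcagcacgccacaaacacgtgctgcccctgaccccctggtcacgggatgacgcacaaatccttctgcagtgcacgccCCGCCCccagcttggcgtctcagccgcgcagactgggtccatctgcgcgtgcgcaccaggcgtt
Tomm40: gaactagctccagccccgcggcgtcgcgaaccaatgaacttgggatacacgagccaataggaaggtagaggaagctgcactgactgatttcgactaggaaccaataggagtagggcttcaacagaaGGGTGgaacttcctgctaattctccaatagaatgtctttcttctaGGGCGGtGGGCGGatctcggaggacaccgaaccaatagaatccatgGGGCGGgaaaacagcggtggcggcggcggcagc
Hspe1: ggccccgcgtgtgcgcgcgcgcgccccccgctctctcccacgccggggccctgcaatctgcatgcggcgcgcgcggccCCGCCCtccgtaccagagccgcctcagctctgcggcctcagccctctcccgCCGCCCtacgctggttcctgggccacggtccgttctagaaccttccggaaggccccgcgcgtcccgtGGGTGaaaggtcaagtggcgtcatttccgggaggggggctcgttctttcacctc

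The Tomm40 window held 3 copies of GGGCGG, 1 of CACCC and 5 of CCAAT. The Hspe1 window held 2 copies of GGGCGG and 1 of CACCC, Tomm70a 1 of each, and Tomm20 1 copy of GGGCGG and none of CACCC. In these windows no GGGCGG overlapped a CACCC. Windows of this kind were found for 38 member genes, 46 in all. GGGCGG was present in 29 of the 46 (63.0%), against 32.7% of all 32851 windows in the table. CACCC was present in 45.7% against 52.0%, and CCAAT in 30.4% against 33.8%. The table of all windows includes those of non-coding genes. Sorted by the result of the array comparison, GGGCGG was found in 10 of 14 genes that were higher, 3 of 6 that were lower and 11 of 16 that did not pass the threshold. For CCAAT these counts were 3 of 14, 5 of 6 and 6 of 16. A match of letters is a description and not a site.

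Genotypes were compared on log2 signals with limma over the 13576 probe sets whose 7-array mean reached the 40th percentile (log2 5.74), and a difference is called at an adjusted p under 0.05. Of the member probe sets 78 of 86 passed this filter, and 40 of 42 genes. Both probe sets of Timm9 and the single one of Timm8a2 lay below it, as did 1 or 2 dim probe sets each of Dnm1l, Mfn2, Timm10b and Tomm7. A gene is represented by its brightest probe set, chosen by the mean over all 7 arrays. On that basis 16 of the 40 genes rose in KLF15-null hearts, 7 fell and 17 did not pass, with a median difference of 0.23. Among all 8404 genes 27.4% rose and 19.6% fell, with a median of 0.02. Import genes divided into 10 higher, 4 lower and 9 not past the threshold (median 0.32), quality control genes into 3, 2 and 3 (median -0.08), and dynamics genes into 2, 1 and 5 (median -0.29). Of the import genes 43.5% rose and 17.4% fell. The quality control and dynamics groups hold only 8 genes each. In bulk tissue fewer cells of a type and less RNA per cell cannot be told apart.

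**Figure D1:**
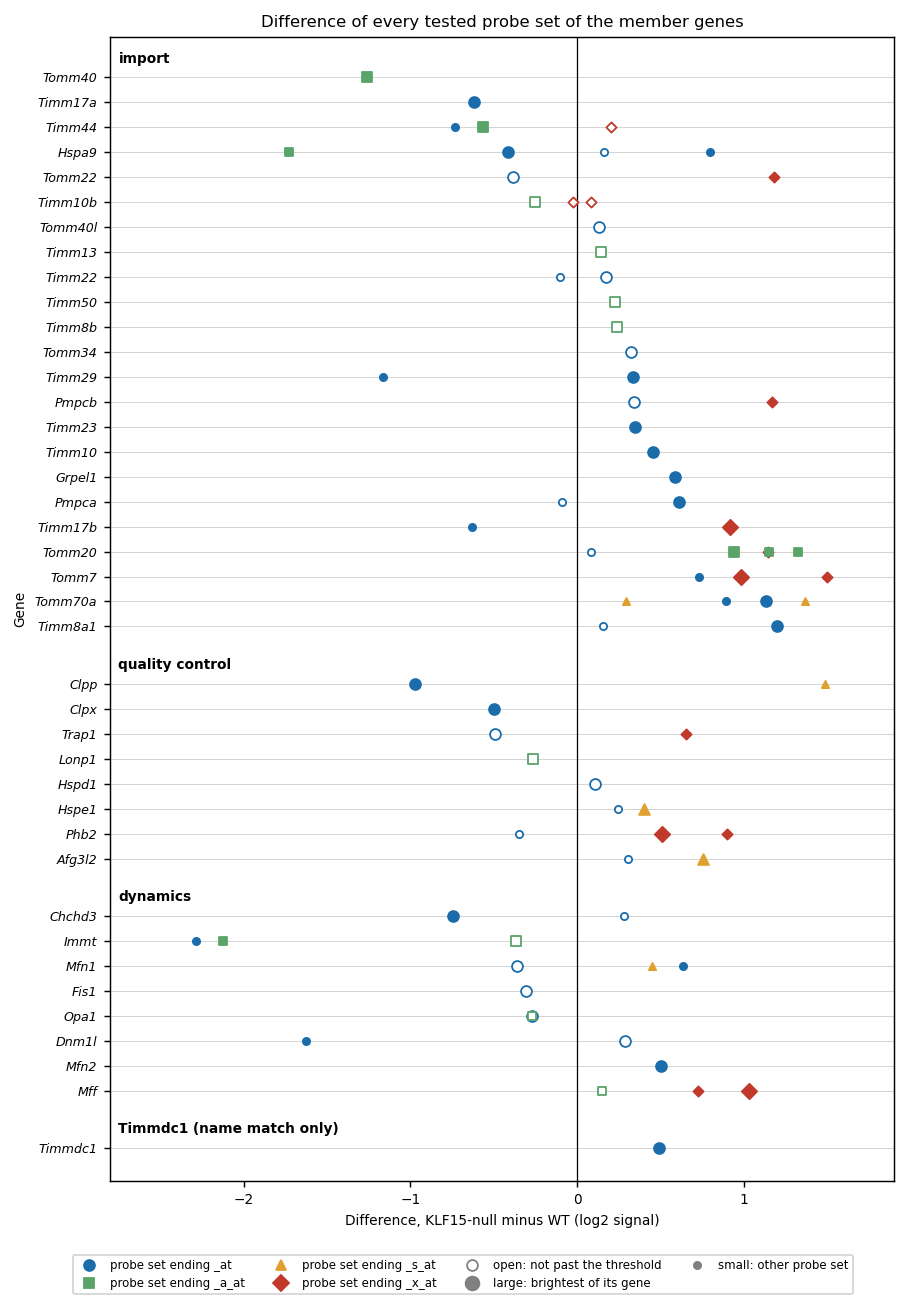
Difference in log2 signal, KLF15-null minus WT, on the horizontal axis for each of the 78 tested probe sets, with genes in rows by group. Filled symbols passed limma's threshold, open ones did not, the large symbol is the brightest probe set of the gene, and shape and colour give the probe set type. Tomm70a and Tomm7 have every tested probe set to the right of 0, while Hspa9, Clpp, Timm17b and Timm29 have filled symbols on both sides.

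Most probe sets of the import receptors rose. Of 11 tested probe sets of Tomm20, Tomm22 and Tomm70a, 9 were higher and none lower, against 26.8% of all tested probe sets higher and 23.8% lower. Tomm70a, the receptor for carrier proteins with internal targeting signals, had log2 signals of 8.88, 8.93, 9.04 and 8.75 in WT and of 9.95, 10.01 and 10.13 in KLF15-null hearts on its brightest probe set. The groups did not overlap. The rise was 2.19-fold (log2 1.13, SE 0.11, limma adjusted p = 3.20e-05). The other 3 tested probe sets of Tomm70a were higher too, by 1.36, 0.89 and 0.29, and the last of these missed the threshold without KLF15-null replicate 1, WT replicate 1 or WT replicate 4 (adjusted p = 0.0535 to 0.0711).

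Tomm20 is the receptor that binds cleavable presequences. Its brightest probe set read 11.27, 11.51, 11.61 and 11.35 in WT and 12.27, 12.44 and 12.41 in KLF15-null hearts. All KLF15-null arrays were above all WT arrays, by 0.94 in the mean (SE 0.11, limma adjusted p = 0.000119). Of its other 4 probe sets 3 were also higher, by 1.15, 1.32 and 1.15. The remaining one, the gene-specific _at probe set, differed by only 0.08 (SE 0.15, adjusted p = 0.68), with WT at 9.80, 10.07, 10.01 and 10.01 and KLF15-null at 10.33, 9.72 and 10.10, so that the groups overlapped.

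Tomm22, the central receptor that links the TOM channels, gave no single direction. Its brightest probe set read 9.00, 9.10, 9.20 and 9.02 in WT and 9.00, 8.21 and 8.87 in KLF15-null hearts, -0.38 apart (SE 0.18, limma adjusted p = 0.101). Without KLF15-null replicate 1 it passed the threshold at -0.54 (adjusted p = 0.0326). A second probe set, of the _x_at type, read 8.13, 8.13, 8.34 and 8.35 against 9.13, 9.65 and 9.49, which is 1.18 higher (adjusted p = 9.98e-05) with no overlap. The level of Tomm22 therefore has no settled direction in these data.

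Tomm40 forms the channel of the outer membrane, and it fell while most receptor probe sets rose. Its 1 probe set read 7.92, 8.11, 7.74 and 7.78 in WT and 6.86, 6.29 and 6.74 in KLF15-null hearts. The groups were well apart, 2.39-fold lower in the KLF15-null mean (log2 -1.26, SE 0.15, limma adjusted p = 0.000101). Tomm40l, a second channel form, differed by 0.13 and did not pass. Tomm7, a small subunit that modulates assembly of the TOM complex, was higher on all 3 tested probe sets. The brightest, an _x_at probe set, read 9.52, 9.60, 9.84 and 9.52 in WT and 10.57, 10.55 and 10.69 in KLF15-null hearts, 0.98 higher (SE 0.12, adjusted p = 0.000106). Its gene-specific probe set was higher by 0.73 (adjusted p = 0.00309). Tomm34, a cytosolic cochaperone of import, differed by 0.32 (adjusted p = 0.0584), and passed without KLF15-null replicate 2 (adjusted p = 0.017).

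Among the small chaperones that escort proteins across the intermembrane space, Timm8a1 had the largest rise. Its brightest probe set read 7.90, 8.15, 8.19 and 7.56 in WT and 9.03, 9.17 and 9.24 in KLF15-null hearts. The groups did not overlap and the rise was 2.29-fold (log2 1.20, SE 0.16, limma adjusted p = 0.000187). Its second probe set differed by 0.15 and did not pass, though it did without KLF15-null replicate 2 (adjusted p = 0.0353). Timm10 rose by 0.45 (adjusted p = 0.0106). Timm13, Timm8b and Timm10b did not pass on any of their 5 probe sets, with differences of -0.25 to 0.24. Without KLF15-null replicate 2, Timm13, Timm8b and 1 of the 3 Timm10b probe sets passed as higher (adjusted p = 0.026, 0.0118 and 0.00837). Over the whole group of small chaperones 2 of 8 probe sets were higher and none lower, a share of higher calls near the 26.8% of all tested probe sets.

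The inner membrane translocase for presequence proteins, TIM23, had subunits on both sides. Timm23, its channel subunit, read 11.43, 11.47, 11.61 and 11.28 in WT and 11.87, 11.66 and 11.85 in KLF15-null hearts. These groups were separate, and the difference of 0.35 (SE 0.11) passed narrowly (limma adjusted p = 0.0296). It missed the threshold when WT replicate 1, 2 or 4 or KLF15-null replicate 1 or 3 was left out (adjusted p = 0.0663 to 0.103), and it was -0.07 after quantile normalization. Timm17a, a partner of the channel, fell: it read 10.37, 10.44, 10.57 and 10.24 in WT and 10.15, 9.43 and 9.79 in KLF15-null hearts, 1.54-fold lower (log2 -0.62, SE 0.17, adjusted p = 0.0123). KLF15-null replicate 1 came within 0.1 of the lowest WT array.

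Timm17b, the other form of that partner, was measured in opposite directions. On its _x_at probe set WT arrays read 7.90, 7.96, 7.84 and 7.70 and KLF15-null arrays 8.47, 9.03 and 8.80, 0.92 higher (SE 0.14, limma adjusted p = 0.000445). On its gene-specific probe set WT arrays read 8.29, 8.13, 8.26 and 8.15 and KLF15-null arrays 7.73, 7.35 and 7.65, 0.63 lower (-0.63, SE 0.11, adjusted p = 0.00122). Neither pair of groups overlapped, so the direction for Timm17b rests on the choice of probe set. Timm50, the receptor of TIM23, read 7.62, 7.78, 7.93 and 7.56 against 8.01, 7.57 and 8.27, with overlap, and did not pass (0.23, SE 0.16, adjusted p = 0.276). Without KLF15-null replicate 2, Timm50 was 0.42 higher (adjusted p = 0.023).

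The TIM22 translocase inserts carrier proteins. Timm22 did not pass on either probe set, with differences of 0.17 and -0.10. Timm29, another subunit, was higher on its brighter probe set, with 9.67, 9.53, 9.69 and 9.64 in WT and 9.95, 9.82 and 10.13 in KLF15-null hearts (0.33, SE 0.11, limma adjusted p = 0.0316). On its dimmer one it was lower, with 7.33, 7.38, 7.27 and 7.46 against 6.10, 6.33 and 6.15 (-1.16, SE 0.09, adjusted p = 9.67e-06). Both are gene-specific types and in both the groups were separate. The lower call held with each array left out in turn. The higher one was lost without WT replicate 1, 2 or 4 or KLF15-null replicate 1 or 3 (adjusted p = 0.0506 to 0.121).

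The import motor pulls proteins into the matrix. Timm44, which anchors it to the channel, read 11.20, 11.08, 10.67 and 11.01 in WT and 10.37, 10.52 and 10.37 in KLF15-null hearts. All KLF15-null arrays were below all WT arrays, by 1.48-fold (log2 -0.57, SE 0.14, limma adjusted p = 0.00681). A gene-specific probe set was also lower (-0.73, adjusted p = 0.026), but not without WT replicate 1 or 3 (adjusted p = 0.0612 to 0.0718), and an _x_at probe set differed by 0.20 and did not pass. Grpel1, the nucleotide exchange factor of the motor, rose by 0.59 (adjusted p = 0.00241) on its 1 probe set.

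Hspa9, the mitochondrial Hsp70 at the core of the motor and a matrix folding chaperone, was called in both directions. The brightest probe set read 10.38, 10.48, 10.75 and 10.48 in WT and 10.15, 9.92 and 10.25 in KLF15-null hearts (-0.41, SE 0.13, limma adjusted p = 0.0232). The second read 9.75, 9.78, 9.93 and 9.71 against 10.55, 10.49 and 10.73 (0.80, SE 0.11, adjusted p = 0.000265). The third, an _a_at probe set, read 7.63, 7.50, 7.68 and 7.61 against 5.92, 5.99 and 5.72 (-1.73, SE 0.09, adjusted p = 1.60e-06). On all 3 the groups were separate. The fourth differed by 0.16 and did not pass. Without WT replicate 2 or KLF15-null replicate 2 the brightest one missed the threshold (adjusted p = 0.0524 and 0.0544), while the second and the third kept their calls with any 1 array left out. A direction for Hspa9 as a gene cannot be read from these probe sets.

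The processing peptidase removes presequences in the matrix. Its subunit Pmpca rose by 0.61 (limma adjusted p = 0.00623) on the brightest probe set and differed by -0.09 on the other. Pmpcb differed by 0.34 (adjusted p = 0.0753) on its brightest probe set and was 1.17 higher (adjusted p = 0.000109) on an _x_at one. The brightest passed as higher without WT replicate 3 or KLF15-null replicate 2 (adjusted p = 0.0479 and 0.00704). Timmdc1, named like the translocase genes but no part of them, rose by 0.49 (adjusted p = 0.000986).

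**Figure D2:**
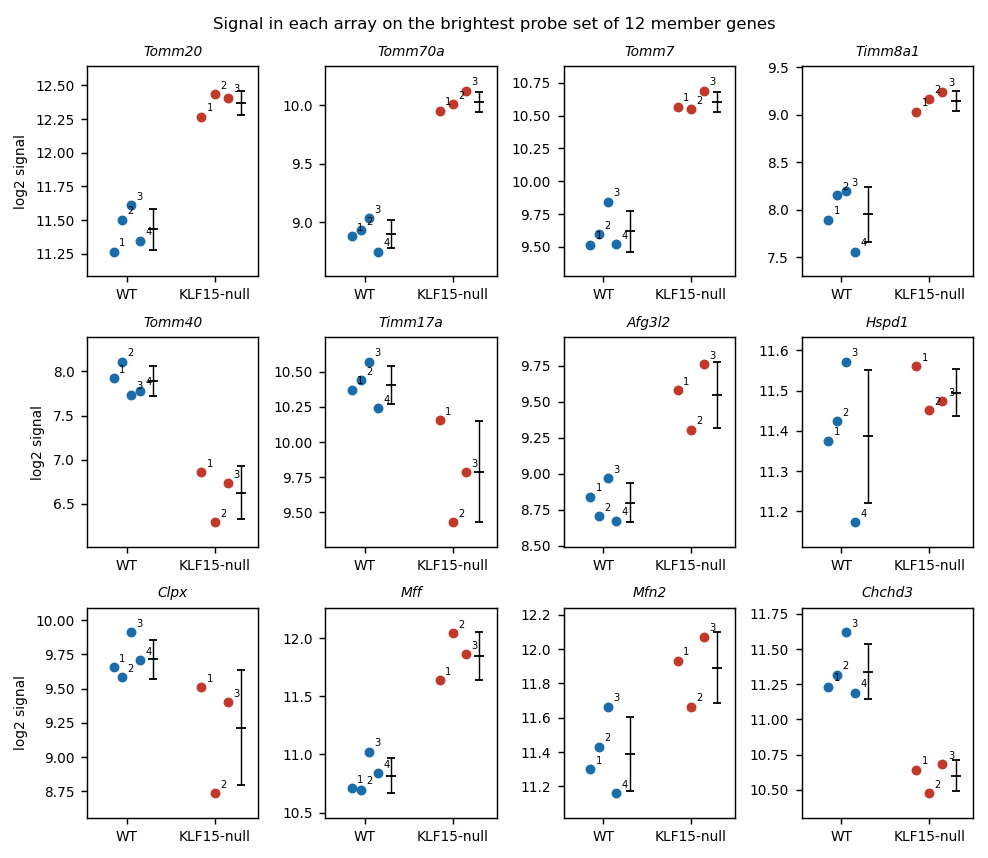
Log2 signal in each array on the brightest probe set of 12 member genes, with WT arrays in blue, KLF15-null arrays in red, and the replicate number beside each point. The bar gives the group mean ± SD (n = 4 WT, n = 3 KLF15-null), and each panel has its own vertical range, which does not start at 0. Tomm20, Tomm70a, Tomm7, Timm8a1, Afg3l2, Mff and Mfn2 sit higher in all KLF15-null arrays, Tomm40, Timm17a, Clpx and Chchd3 lower, and Hspd1 overlaps.

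Quality control genes showed no shared direction. The matrix chaperonin, a folding chamber made of Hspd1 (Hsp60) and its lid Hspe1 (Hsp10), had differences that turned on the scaling between arrays. Hspd1 read 11.38, 11.42, 11.57 and 11.17 in WT and 11.56, 11.45 and 11.47 in KLF15-null hearts. These overlapped, and the difference of 0.11 (SE 0.12, limma adjusted p = 0.461) did not pass. After quantile normalization Hspd1 was called lower (-0.29, adjusted p = 0.0149). Hspe1 read 10.77, 10.98, 11.05 and 10.74 against 11.25, 11.27 and 11.34 on an _s_at probe set, without overlap (0.40, SE 0.11, adjusted p = 0.015). That call was lost without KLF15-null replicate 3 (adjusted p = 0.0597) and after quantile (-0.0045, adjusted p = 0.967) and cyclic loess normalization (0.11, adjusted p = 0.345). Its gene-specific probe set differed by 0.25 (adjusted p = 0.151). The annotated gene spans of the pair overlap by 96 bases at their starts. Trap1, a matrix Hsp90, differed by -0.49 (adjusted p = 0.0561) on its brightest probe set and was 0.65 higher (adjusted p = 0.000803) on an _x_at one. The brightest passed as lower without KLF15-null replicate 1 (adjusted p = 0.00953).

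The matrix proteases divided. Clpp, the proteolytic subunit of the ClpXP protease, was the clearest conflict between probe sets of the quality control group. Its brightest, gene-specific probe set read 9.53, 9.42, 9.58 and 9.30 in WT and 8.80, 8.00 and 8.65 in KLF15-null hearts (-0.97, SE 0.18, limma adjusted p = 0.00162). Its _s_at probe set read 8.10, 8.15, 8.31 and 8.02 against 9.40, 9.66 and 9.85 (1.49, SE 0.13, adjusted p = 1.81e-05). Each set of groups was fully separate. Both calls held with any 1 array left out.

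Clpx, the unfoldase partner of Clpp, read 9.65, 9.58, 9.91 and 9.71 in WT and 9.51, 8.74 and 9.40 in KLF15-null hearts. The groups were separate and the difference was -0.50 (SE 0.18, limma adjusted p = 0.0466). The call was lost without any of the 4 WT arrays and without KLF15-null replicate 2 or 3 (adjusted p = 0.0581 to 0.112), so among the fits with 1 array left out it held only in that without KLF15-null replicate 1. Lonp1, the other soluble matrix protease, read 9.45, 9.47, 9.49 and 9.30 against 9.45, 8.59 and 9.44, with overlap, and did not pass (-0.27, SE 0.20, adjusted p = 0.291).

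Afg3l2, a subunit of the inner membrane m-AAA protease, rose on an _s_at probe set, with 8.84, 8.71, 8.97 and 8.67 in WT and 9.58, 9.31 and 9.76 in KLF15-null hearts (0.75, SE 0.13, limma adjusted p = 0.00122). The groups were separate. Its gene-specific probe set differed by 0.30 and did not pass, though it did without KLF15-null replicate 2 (adjusted p = 0.00182). Phb2, a prohibitin that forms ring scaffolds in the inner membrane, read 10.81, 10.93, 11.12 and 10.68 against 11.41, 11.28 and 11.49 on an _x_at probe set (0.51, SE 0.13, adjusted p = 0.008), again separate. A second _x_at probe set of Phb2 was 0.90 higher (adjusted p = 0.000741). The gene-specific one differed the other way, by -0.35 (adjusted p = 0.147), and passed as lower without KLF15-null replicate 1 (adjusted p = 0.0396).

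Of the 4 lower calls among dynamics probe sets, 3 belonged to the cristae organizers. Chchd3 and Immt encode subunits of the MICOS complex, which holds cristae junctions open. Chchd3 read 11.23, 11.32, 11.62 and 11.19 in WT and 10.64, 10.47 and 10.68 in KLF15-null hearts on its brightest probe set. The groups were separate and the fall was 1.67-fold (log2 -0.74, SE 0.13, limma adjusted p = 0.00105). A dimmer probe set of Chchd3 differed by 0.28 and did not pass, but after median centring it was called higher (0.37, limma adjusted p = 0.047).

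Immt (mitofilin) was described after its values had been seen, since its representing probe set did not pass. That probe set read 10.98, 11.09, 11.23 and 11.07 in WT and 11.07, 10.24 and 10.88 in KLF15-null hearts (-0.37, SE 0.18, limma adjusted p = 0.125), and it passed as lower without KLF15-null replicate 1 (adjusted p = 0.035). The second read 10.53, 10.42, 10.62 and 10.38 against 9.00, 7.35 and 8.76, 4.35-fold lower (log2 -2.12, adjusted p = 0.000528). The third read 8.85, 8.67, 8.74 and 8.67 against 6.37, 6.74 and 6.23, 4.88-fold lower (log2 -2.29, adjusted p = 1.85e-06). On the last 2 the groups were far apart, and their calls held with each array left out. On the brightest, KLF15-null replicate 1 lay inside the WT range. On the deposited values 3 of 5 probe sets over both genes were lower and none higher, beside 23.8% of all tested probe sets lower and 26.8% higher. After quantile and cyclic loess normalization the brightest Immt probe set was lower too, at -0.73 and -0.65 (adjusted p = 0.00176 and 0.00293).

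Of the fusion genes, Mfn2, an outer membrane fusion GTPase that also tethers mitochondria to the sarcoplasmic reticulum, read 11.30, 11.43, 11.66 and 11.16 in WT and 11.93, 11.67 and 12.07 in KLF15-null hearts. The groups were separate, though the lowest KLF15-null array was within 0.1 of the highest WT array. The rise of 0.50 (SE 0.15, limma adjusted p = 0.0177) was lost without WT replicate 1 or 4 or KLF15-null replicate 3 (adjusted p = 0.0501 to 0.0859). It was also lost after quantile (0.10, adjusted p = 0.398) and cyclic loess normalization (0.16, adjusted p = 0.164). Its partner Mfn1 read 10.17, 10.37, 10.66 and 10.13 against 10.17, 9.53 and 10.22 on the brightest probe set, with overlap (-0.36, SE 0.20, adjusted p = 0.153). The same probe set was called lower after quantile (-0.64, adjusted p = 0.00403) and cyclic loess normalization (-0.59, adjusted p = 0.00622). On the other 2 probe sets Mfn1 was higher, by 0.45 (adjusted p = 0.00903) and 0.63 (adjusted p = 0.00153).

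Opa1, the inner membrane fusion GTPase, read 6.51, 6.52, 6.51 and 6.51 in WT and 6.28, 6.49 and 5.95 in KLF15-null hearts. All KLF15-null arrays were lower, yet the difference of -0.27 (SE 0.12, limma adjusted p = 0.0782) did not pass. It passed without KLF15-null replicate 2 at -0.40 (adjusted p = 0.00918). The second Opa1 probe set also differed by -0.27 and overlapped.

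Fission genes likewise split by probe set. Dnm1l, the dynamin-related GTPase that constricts mitochondria, read 9.30, 9.52, 9.52 and 9.27 in WT and 9.74, 9.60 and 9.74 in KLF15-null hearts on its brightest probe set, separate but not past the threshold (0.29, SE 0.11, limma adjusted p = 0.0584). Without KLF15-null replicate 2 it was 0.33 higher and passed (adjusted p = 0.0323). A second Dnm1l probe set read 8.35, 8.47, 8.39 and 8.37 against 6.85, 6.83 and 6.62, 3.08-fold lower (log2 -1.62, adjusted p = 2.11e-06). Here every KLF15-null array was far below every WT array, and the call held with any 1 array left out.

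Mff, the outer membrane receptor for Dnm1l, rose on both _x_at probe sets. The brightest read 10.71, 10.70, 11.02 and 10.84 in WT and 11.64, 12.04 and 11.86 in KLF15-null hearts (1.03, SE 0.13, limma adjusted p = 0.000167), and the dimmest was 0.72 higher. No groups overlapped on these. Its _a_at probe set differed by 0.15 (adjusted p = 0.256). Fis1, another outer membrane fission factor, differed by -0.30 (adjusted p = 0.279).

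**Figure D3:**
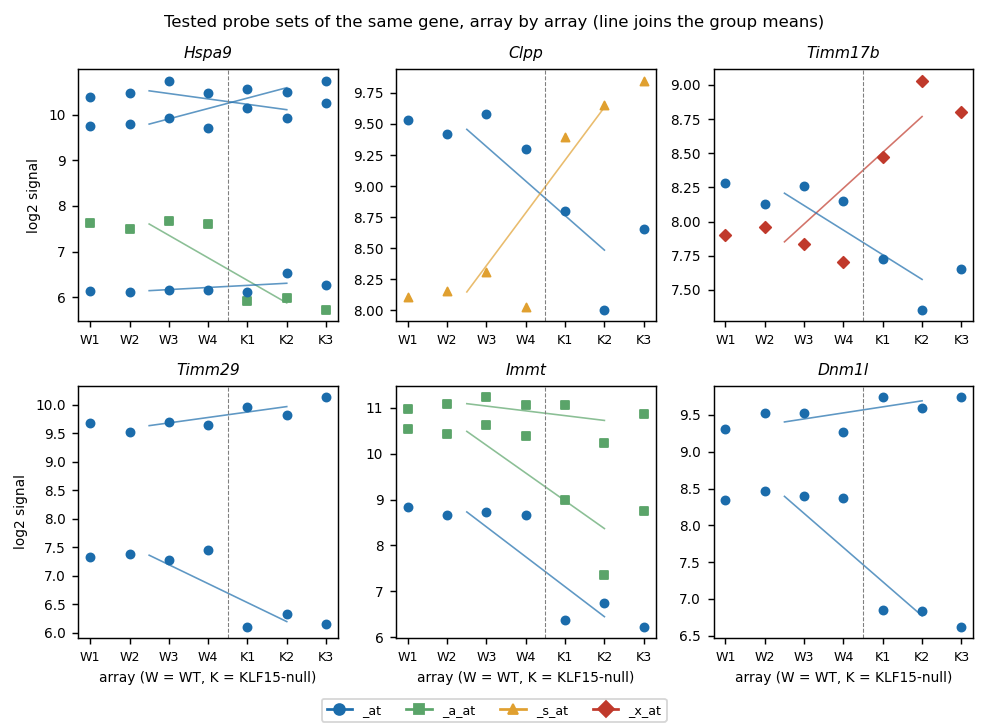
Log2 signal on every tested probe set of 6 genes, with the 4 WT (W) and 3 KLF15-null (K) arrays on the horizontal axis, colour and shape giving the probe set type, and a line joining the group means of each probe set. Lines of 1 gene run in opposite directions for Hspa9, Clpp, Timm17b and Timm29, and for Immt and Dnm1l they differ in steepness or direction. Vertical ranges differ between panels and do not start at 0.

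Such conflicts touched 4 of the 24 member genes with at least 2 tested probe sets (16.7%), beside 576 of 2748 genes (21.0%) on the whole array. In 15 of the 24 some probe sets were called in 1 direction and others did not pass, in 3 none was called, and in 2, Tomm70a and Tomm7, all tested ones were higher. The other 16 genes had a single tested probe set. Which transcript each probe set reads was not tested.

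The type of probe set moved with the direction. A name ending in _x_at marks probes that may bind other sequences, _s_at probes shared by several transcripts, _a_at probes shared by transcripts of 1 gene, and plain _at probes meant to be specific. Of 14 member _x_at probe sets 11 were higher and none lower, where 60.5% of all tested _x_at probe sets were higher and 7.91% lower. All 6 member _s_at probe sets were higher, against 37.3% of all higher and 17.9% lower. Of 43 plain _at probe sets 13 were higher (30.2%) and 10 lower (23.3%), beside 20.5% and 25.0% of all of that type. Of 15 _a_at probe sets 3 were higher and 4 lower, beside 29.9% and 28.5% of all of that type. In the quality control group all 6 calls of a rise came from _s_at or _x_at probe sets, and none of its 7 plain _at probe sets was higher and 2 were lower. Over all 78 member probe sets 33 were higher and 14 lower, and 31 did not pass. Without _x_at and _s_at probe sets 16 were higher and 14 lower, where 22.7% and 25.8% of all other tested probe sets were. By gene this left 9 import genes higher and 5 lower, no quality control gene higher and 2 lower, and 1 dynamics gene in each direction. Of all 40 genes 11 were then higher and 8 lower, shares near the 23.6% and 21.5% of all genes under the same choice. The part of cross-hybridization in these results was not tested.

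Scaling between the arrays changed the balance of higher and lower calls. Quantile normalization gave 7 import genes higher and 5 lower, 1 quality control gene higher and 5 lower, and 1 dynamics gene higher and 3 lower, with 27.6% of all genes higher and 21.9% lower. Cyclic loess normalization gave 7 and 5, 1 and 4, and 1 and 3, with 26.4% and 23.1% of all genes. Centring on the median gave 12 and 3, 3 and 1, and 3 and 1, with 34.0% and 14.6%, and moved the median difference of all genes from 0.02 to 0.12. After quantile and cyclic loess normalization the share of import genes called higher was 30.4%, close to that of all genes. Over all 40 genes the count of higher against lower calls went from 16 and 7 to 10 and 13 with quantile and 10 and 12 with cyclic loess normalization. Both of these scalings removed the higher calls of Timm10, Timm23, Timm29, Hspe1, Phb2 and Mfn2 and called Tomm22, Trap1, Lonp1, Immt and Mfn1 lower, and quantile normalization also called Hspd1 lower. Median centring removed the lower calls of Hspa9 and Clpx and called Dnm1l, Pmpcb and Tomm34 higher. Of the 23 called genes 15 kept their call under all 3 scalings and with each of the 7 arrays left out. The share of all called genes on the array that did so was not counted, so 15 of 23 has no background here. Of the 15, those higher were Tomm70a, Tomm20, Tomm7, Timm8a1, Timm17b, Grpel1, Pmpca, Afg3l2, Mff and Timmdc1, and those lower were Tomm40, Timm17a, Timm44, Clpp and Chchd3. Timm17b and Clpp are among them although a second probe set of each was called the other way. In WT the gene-specific probe set of Timm17b, which was lower, was the brighter one (mean 8.21 against 7.85). With the probe set brightest in WT, 9 import genes were higher and 5 lower, beside 25.3% and 21.2% of all genes. With probe sets averaged per gene Timm17b, Clpp and Chchd3 did not pass (limma adjusted p = 0.183, 0.11 and 0.132). The second Pmpca probe set was called lower after quantile and cyclic loess normalization (-0.28 and -0.27, adjusted p = 0.031 and 0.0352). The dimmer Chchd3 probe set was called higher after median centring (0.37, adjusted p = 0.047). The call of Afg3l2 came from an _s_at and that of Mff from _x_at probe sets, and the remaining probe set of each did not pass.

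**Figure D4:**
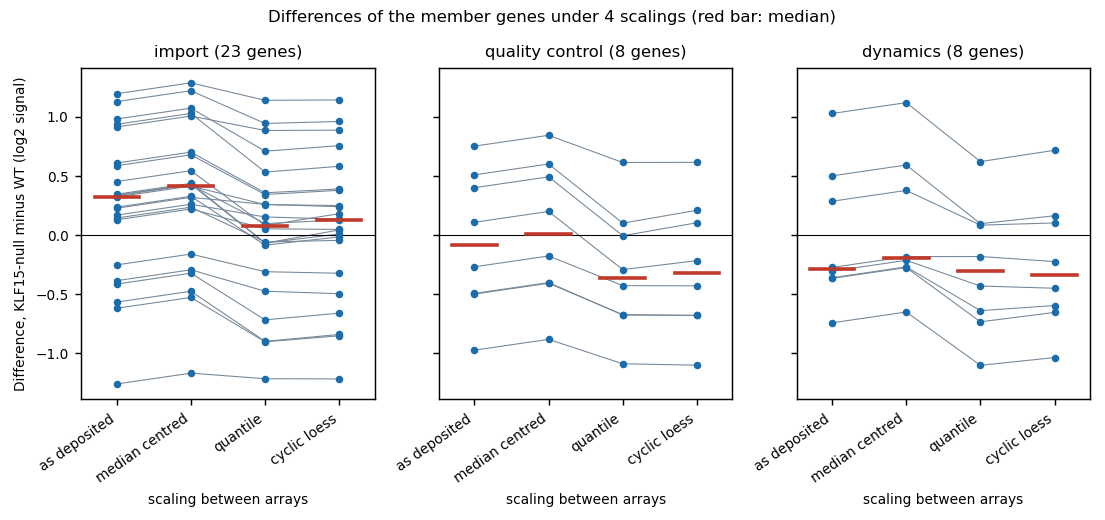
Difference in log2 signal, KLF15-null minus WT, of the brightest probe set of each import, quality control and dynamics gene with the deposited values and after 3 scalings, each grey line being 1 gene and the red bar the median of the group. The import median goes from 0.32 as deposited to 0.42, 0.08 and 0.13 after median centring, quantile and cyclic loess normalization, and the quality control median from -0.08 to 0.01, -0.36 and -0.32.

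One KLF15-null array differed from the other 2 on these genes. KLF15-null replicate 2 was the lowest of the 3 on 52 of the 78 member probe sets (66.7%), against 44.5% of all tested probe sets. On plain _at probe sets this was 79.1% against 45.5%, and on _x_at probe sets 35.7% against 24.3%. Its median distance from the mean of the other 2 arrays was -0.19 on member probe sets and -0.04 on all. It lay more than 0.5 below that mean on 21 of the 78 member probe sets, against 1636 of all 13576 tested ones. Among the 21 were the brightest of Immt, Lonp1, Tomm22, Fis1 and Timm10b. Without this array 15 import genes were higher and 3 lower, 3 quality control genes higher and 1 lower, and 3 dynamics genes higher and 2 lower, while 30.2% of all genes were higher and 18.2% lower. Pmpcb, Timm13, Timm50, Timm8b and Tomm34 joined the import genes called higher, and Hspa9 left those called lower.

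**Figure D5:**
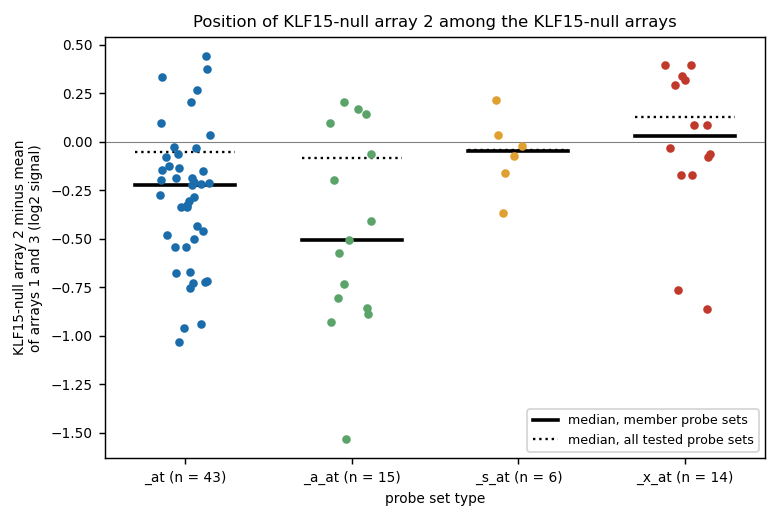
Log2 signal of KLF15-null replicate 2 minus the mean of KLF15-null replicates 1 and 3, on the vertical axis, for the 78 tested member probe sets by probe set type. The solid bar is the median of the member probe sets and the dotted line that of all tested probe sets of the type. On _at probe sets the member median of -0.22 lies below that of all, -0.05, and on _a_at probe sets -0.51 lies below -0.08.

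Genes of the same pathways that the name rule leaves out were counted from further lists. Counts are to be read beside the 27.4% of all genes that rose and the 19.6% that fell. They were made on the deposited values only, where the brightest 10% of all probe sets had a median difference of 0.30. The other scalings were not applied to these lists. Of 14 other import genes 9 rose, none fell and 5 did not pass (median 0.35). Those with the smallest p were Romo1, which has been linked to import of the TIM23 type (1.20, limma adjusted p = 0.000101), Samm50, the core of the outer membrane sorting machinery (1.18 on an _x_at probe set, adjusted p = 0.000154), and Gfer, the oxidase of the disulfide relay (0.86, adjusted p = 0.000175). Of 16 other quality control genes 3 rose, 4 fell and 9 did not pass (median -0.00), shares near those of all genes. Ddit3, a stress-induced transcription factor, rose by 0.78 (adjusted p = 0.000424), and the inner membrane protease gene Yme1l1 by 0.83 (adjusted p = 0.00172). Hscb, a cochaperone of iron-sulfur cluster assembly, fell by 0.61 (adjusted p = 0.00161). Atf4 and Atf5, transcription factors of the mitochondrial stress response, differed by 0.25 and 0.06 and did not pass. Of 16 other dynamics genes tested 4 rose, 3 fell and 9 did not pass (median 0.03), again near those shares. The ubiquitin ligase gene Mul1 rose by 0.98 (adjusted p = 0.000174) and the MICOS subunit gene Micos10 by 0.77 on an _x_at probe set (adjusted p = 0.00036), while Mtfr1l, a regulator of fission, fell by 0.68 (adjusted p = 0.000854). Apool, also of MICOS and outside the rule for named genes, was looked up after the values of Immt and Chchd3 were seen and fell by 0.58 (adjusted p = 0.00144). Chchd6, Micos13 and Dnajc11 of the same list differed by -0.30, -0.45 and 0.04 and did not pass (adjusted p = 0.0649, 0.0757 and 0.757).

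Some markers of the cells a whole heart holds moved as well. For comparison, 27.4% of all genes rose and 19.6% fell. Of 10 cardiomyocyte markers 2 rose and 8 did not pass, with array means of the list at 13.14 to 13.32 in WT and 13.35 to 13.61 in KLF15-null hearts, so the tissue label was borne out on every array. Of 9 tested leukocyte markers 7 rose, none fell and 2 did not pass, with array means of 7.35 to 8.02 against 8.35 to 8.95. Endothelial markers had 3 of 7 lower and none higher, with 8.41 to 8.71 against 7.58 to 8.27. Of 9 fibroblast markers 3 fell and 1 rose (8.64 to 9.38 against 8.51 to 8.73), and of 6 smooth muscle markers 2 fell (8.53 to 8.94 against 8.19 to 8.68). None of 4 adipocyte markers passed the filter. The part of these cell markers in the results on import, quality control and dynamics genes was not tested.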

How the data were processed

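RNA from 4 WT and 3 KLF15-null hearts was measured on Affymetrix 3' arrays, with biotin-labelled cRNA made by the one-cycle kit, per the labels' protocols. The authors deposited log2 signals per probe set (3.20 to 14.28), the unit being read from the values. GCOS is named, without a role or version, per the submitters' processing notes. For summarization and normalization no method is stated in those notes, the labels or the file. An array has no read depth, and the number of arrays limits the precision.

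Array medians lay within 0.15 log2, so values were used as deposited. Probe sets were named through the platform's annotation where they had 1 symbol. The Entrez numbers of all 42 member genes were found in the RefSeq gene table of GRCm38.p6, with equal symbols. The genotype comparison used limma 3.58.1 (R 4.3.3): a linear model with two-sided moderated tests (empirical Bayes, variance trend on intensity). Probe sets with a 7-array mean at or above the 40th percentile were tested, with Benjamini-Hochberg adjustment over all 13576 and a threshold of 0.05. The procedure was tested on simulated data.

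The members and lists were chosen with earlier results of these data known. Values in every array are given for up to 4 genes with the largest rise and fall per group, 16 genes set by name, and genes with opposite calls. Other pathway genes are named up to 3 per list by smallest p, and Atf4, Atf5, Apool, Chchd6, Micos13 and Dnajc11 are named beside them outside that rule. Alternatives were the filter, 3 scalings, no intensity trend, array weights, a threshold of 0.1, a replicate block, other choices of probe set, and each array left out. Deviations of arrays with the same number in their titles correlated at -0.11, 0.00 and 0.19, and the numbers were treated as names.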

Additional observations from a re-analysis of the deposited data

Results flagged for a closer look

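In WT hearts 1 array was flagged on the brightest probe sets of Opa1 and Tomm40l, by a test of the gap between the extreme array and its nearest neighbour against the range of the group. Opa1 had its highest WT array at a log2 signal of 6.520, against 6.512 on the other 3. Tomm40l had its lowest at 8.56, against 8.66. In both the gap was the whole range (ratio 1.0), because the other 3 WT arrays held the same value. With 3 equal values the ratio is 1.0 whatever the size of the gap, so the test cannot show that an array stood apart. Chance marks about 1 in 20 groups where no values are equal, and the WT values of 40 genes were examined. Equal values on at least 2 WT arrays, to 6 decimals, were found on 8 of 78 member probe sets (10.3%) and on 24.6% of all tested ones. On the 3 KLF15-null arrays they were found on 0 of 78 and on 4.32%. Over all probe sets WT arrays correlated with each other at 0.995 to 0.997 and KLF15-null arrays at 0.986 to 0.993. Between the genotypes correlations were 0.942 to 0.964. Why the arrays of the 2 genotypes differ in these respects was not tested.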

How the results depend on the processing

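Of the limits on these results, the scaling between arrays, the choice of probe set and KLF15-null replicate 2 moved the counts, and 7 arrays leave small differences undecided. The causes were not tested. Quality control genes higher went from 3 to 1 with cyclic loess and with quantile normalization and to 0 without _x_at and _s_at probe sets or with gene-specific probe sets preferred. Quality control genes lower went from 2 to 4 with cyclic loess normalization, to 5 with quantile normalization, and to 1 with probe sets averaged per gene, median centring, no filter or the replicate block. Dynamics genes higher went from 2 to 1 with cyclic loess normalization, quantile normalization or without _x_at and _s_at probe sets. Dynamics genes lower went from 1 to 2 with array weights, gene-specific probe sets preferred or a threshold of 0.1, and to 3 with cyclic loess normalization, quantile normalization or averaged probe sets. Of all genes 25.8% were lower with array weights, 21.3% with gene-specific probe sets preferred, 23.2% at the threshold of 0.1 and 22.8% with averaged probe sets. With averaged probe sets the lower call of Chchd3 was lost (-0.23, limma adjusted p = 0.132), while Dnm1l and Opa1 were called lower. Member probe sets lower went from 14 to 22 with quantile normalization, and those higher from 33 to 16 without _x_at and _s_at probe sets. With 1 array left out, import genes higher ranged from 8 to 15 and lower from 3 to 5, quality control genes higher from 2 to 3 and lower from 1 to 3, dynamics genes higher from 1 to 3 and lower from 1 to 2, and member probe sets higher from 29 to 43 and lower from 12 to 18. Over the same fits the share of all genes called higher ranged from 23.3% to 30.2% and lower from 16.1% to 20.7%. With the replicate number as a block, 8 import genes were higher and 4 lower, and 30 member probe sets were higher and 13 lower, while 22.5% of all genes were higher and 15.7% lower. WT replicate 4 has no partner and adds nothing to that fit.

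Signs turned as follows among the genes given by array. With probe sets averaged per gene the difference was 0.26 for Clpp, -0.67 for Dnm1l, -0.42 for Timm29 and 0.40 for Tomm22. With quantile normalization it was -0.29 for Hspd1, -0.0045 for Hspe1 and -0.065 for Timm23. Without _x_at and _s_at probe sets, and with gene-specific ones preferred, it was -0.35 for Phb2 and -0.63 for Timm17b, and Timm17b was also -0.63 on the probe set brightest in WT. With no call on either side, signs also turned for Mfn1 with averaged probe sets (0.24), Hspd1 with cyclic loess normalization (-0.22) and Lonp1 without KLF15-null replicate 2 (0.017). Hspd1 was called lower with quantile normalization. Offsets added before a log transformation were not run, as the deposited values are log2.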
